A study of Mus musculus with 24 samples.

Results

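The 37 genes described here encode the enzymes of glycolysis, the carriers of glucose and lactate, the pyruvate dehydrogenase step, the oxygen sensors of the cell and a set of hypoxia-responsive targets. They were chosen by symbol, and the symbols were matched to the gene identifiers of the count tables through GENCODE M21. Aldoa matched 2 identifiers, so the 37 symbols gave 38 of the 55487 gene rows. The row ENSMUSG00000114515.2 is called the second Aldoa locus below. By role, 2 rows are glucose transporters, 11 belong to upper glycolysis, 6 to lower glycolysis, 4 to lactate handling, 4 to the pyruvate dehydrogenase step, 3 to oxygen sensing and 8 to hypoxia targets.

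The libraries are bulk RNA-seq of KH2 cells, a mouse embryonic stem cell line, in which the promoter TRE lets doxycycline turn on a DUX transgene in every group. DUX activates transcription of genes typical of the 2-cell embryo, a state whose end the series' title links to the related protein DUXBL. Cells were left untreated or received doxycycline (DOX) for 16 h. The 24 libraries form 12 groups of 2, each of 6 lines being sampled without and with DOX. The first set holds WT and DUXBL_KO, and the other set holds lines whose titles carry pLV2, namely WT pLV2 line 1, WT pLV2 line 2, TRIM24_KO and TRIM33_KO. Each knockout label stands for 1 line, and the labels say neither whether it is a clone, nor what pLV2 is, nor which WT line it came from. The cells were kept in high-glucose medium with serum, LIF and pyruvate on gelatin or on fibroblast feeders, without a record of the support used for each library. The labels do not say that the libraries of a group came from separate cultures, so the p-values measure only the spread between these libraries.

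Glycolysis splits glucose to pyruvate, which either becomes lactate or enters mitochondria through the pyruvate dehydrogenase complex. When oxygen is low, prolyl hydroxylases of the EGLN family stop marking the transcription factor subunit HIF1A for degradation, and HIF then binds short elements with the core ACGTG or GCGTG near glycolytic genes and genes of angiogenesis, mitophagy and collagen modification. Pluripotent stem cells are known for high glycolytic flux even when oxygen is plentiful.

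Gene counts per library ranged from 11784696 to 19136869, and the 38 rows took 0.796 to 1.51% of them. In TRIM24_KO with DOX replicate 2, 30.4% of gene counts fell on CT010467.1, as did 12.9% in TRIM33_KO with DOX replicate 2 and at most 1.3% elsewhere. Dux (Duxf3) had 0 to 2 counts without DOX and 20 to 110 with DOX. Trim33 had 156 to 446 counts in the TRIM33_KO libraries and 1116 to 2851 elsewhere. Trim24 had 947 to 2278 counts in the libraries labelled TRIM24_KO and Duxbl1 had 6 to 169 in those labelled DUXBL_KO, ranges that overlap those of the other lines, so transcript levels do not check these labels and each direction given for these lines is that of the libraries so labelled. The 10 embryonic stem cell markers were detected in all 24 libraries and summed to 4216 to 6080 CPM, which are counts scaled to the effective library size within a set. Of the 10 feeder fibroblast markers, Col3a1, Postn, Dcn, Lum, Prrx1 and Twist2 had at most 3 counts in any library. Thy1 (up to 414 counts), Pdgfrb (up to 169) and Col1a1 (up to 95) were detected in all 24 libraries, and Col1a2 had up to 36 counts. The list summed to 10.6 to 33.5 CPM. The biological coefficient of variation was 17.6% among the 8 libraries of the first set and 8.73% among the 16 pLV2 libraries.

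Levels of the members were first ordered per kb of annotated exon, as the median of the 12 group means. Pkm, which makes pyruvate, stood at 450 CPM per kb (449.9) and Gapdh at 436, followed by Aldoa at 335, Pgam1 at 240.0, Eno1 at 239 and Ldha at 225. The lowest were Pfkfb3 at 1.67, Eno2 at 0.833 and the hypoxia marker Car9, a membrane carbonic anhydrase, at 0.194 CPM per kb. The group means of neighbours in this order overlapped: Pkm ranged from 393 to 561 CPM per kb over the groups and Gapdh from 387 to 553. The highest group mean was more than 2 times the lowest for 24 of 38 rows, and 1.29 times the lowest for Ldha, the narrowest range. The widest ranges were those of Ldhb at 6.54, Bnip3 at 6.95, Egln3 at 7.79, Car9 at 8.39 and P4ha2 at 61.5 times.

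**Figure D1:**
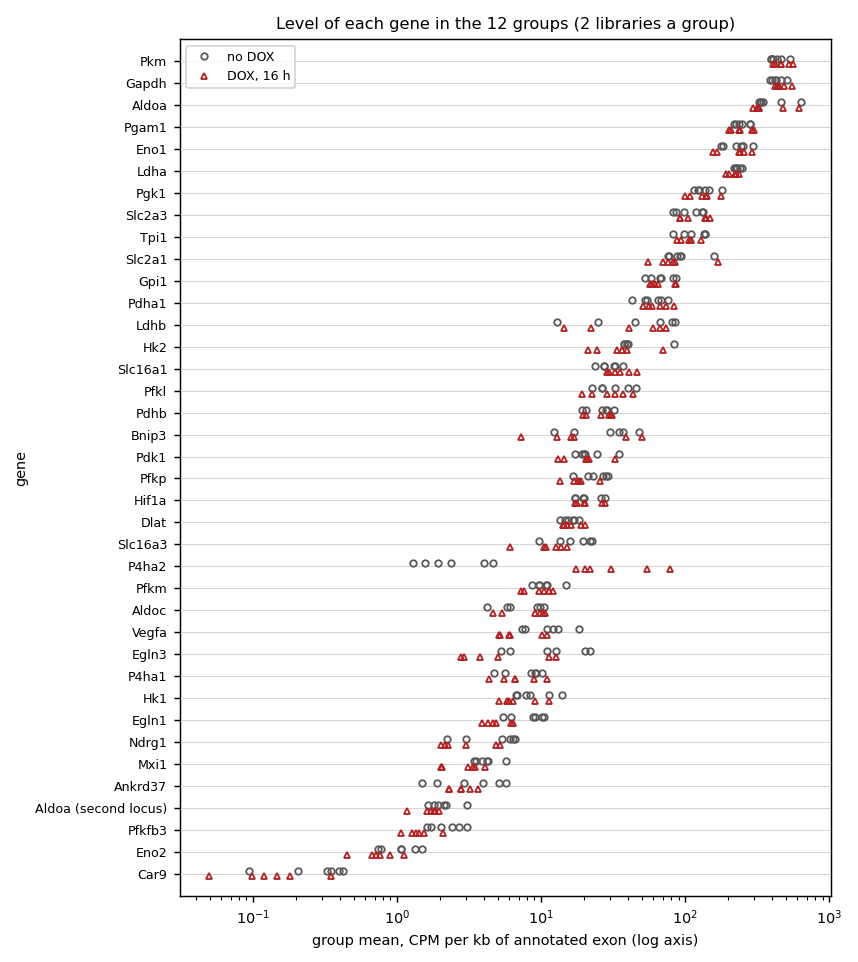
Level of each member in each of the 12 groups, as the mean of 2 libraries in CPM per kb of annotated exon on a log axis, ordered by the median over groups. Pkm and Gapdh lie at the top, Eno2 and Car9 at the bottom, and P4ha2 has the widest range.

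The effect of DOX was compared within each line, with a gene called at an adjusted p under 0.05 in edgeR's quasi-likelihood test (Benjamini-Hochberg adjustment over all tested genes). P4ha2 rose in all 6 lines, whereas other members fell in the pLV2 lines, more of them in WT pLV2 line 2 and TRIM33_KO than in the other 2. In WT, 1 of 37 tested rows was called higher and 0 lower, against 2.86% and 0.116% of the 18060 genes tested. DUXBL_KO likewise had 1 higher and 0 lower, against 4.52% and 0.399% of genes. In WT pLV2 line 1, 1 of 38 rows was higher and 7 were lower, against 9.96% and 6.12% of 18079 genes. WT pLV2 line 2 had 1 higher and 17 lower, where 12.7% and 13.8% of genes were called. TRIM24_KO had 2 higher and 7 lower (11.4% and 4.88% of genes), and TRIM33_KO had 3 higher and 17 lower (16.4% and 20.0% of genes). The share of rows that fell was 44.7% in WT pLV2 line 2 and in TRIM33_KO and 18.4% in the other 2 pLV2 lines, each above the share of all genes in that line.

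The median log2 fold change over the rows was -0.01 in WT and in DUXBL_KO, the same as over all genes. It was -0.09 against -0.03 over all genes in WT pLV2 line 1, -0.26 against -0.07 in line 2, -0.04 against 0.00 in TRIM24_KO and -0.28 against -0.09 in TRIM33_KO. At an unadjusted p under 0.05, WT had 2 members higher and 1 lower and DUXBL_KO 2 and 2, and DESeq2 called 2 higher and 0 lower in WT and 1 and 1 in DUXBL_KO. The count in WT pLV2 line 1 fell from 8 to 3 or 4 when any of its 4 libraries was left out, and it was 13 when only its own 2 groups were fitted. In TRIM24_KO it fell from 9 to 5 without DOX replicate 2, the library in which CT010467.1 took 30.4% of gene counts.

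**Figure D2:**
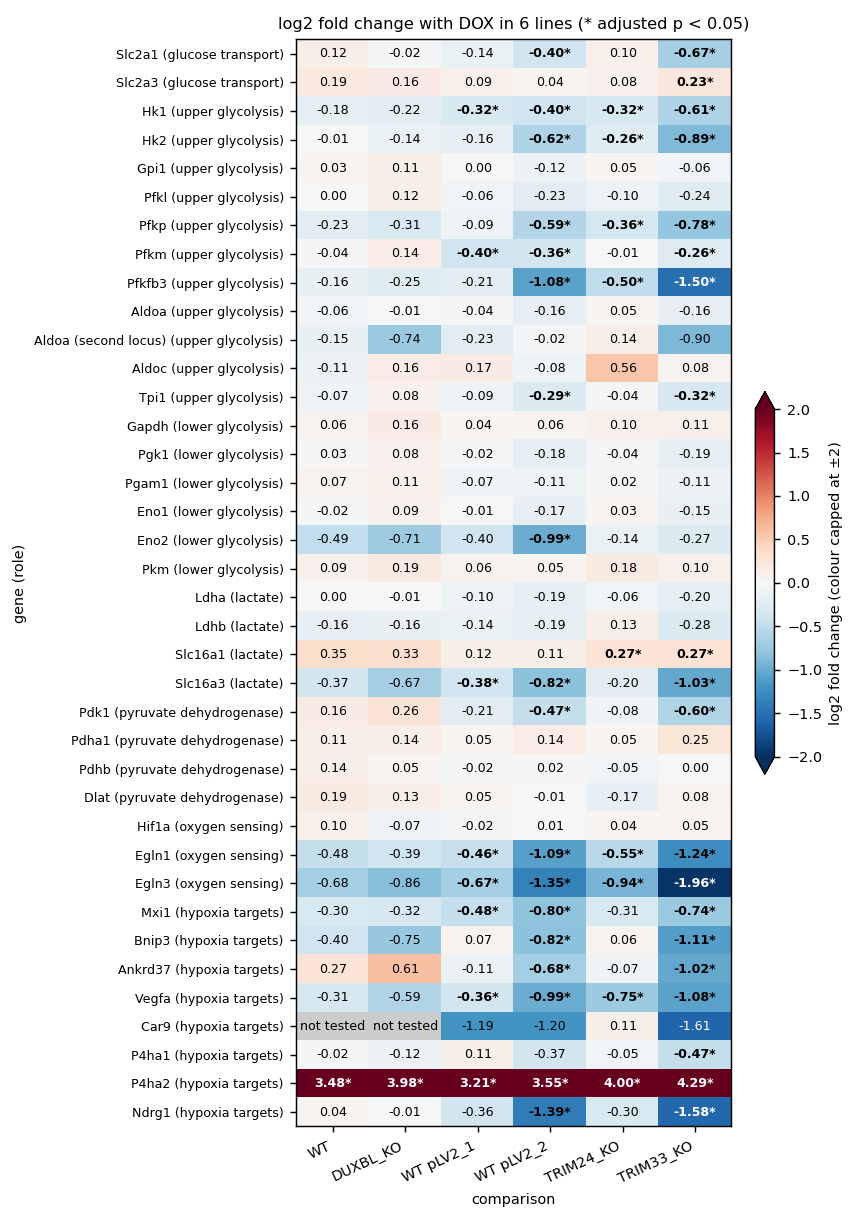
Log2 fold change with DOX of each member (rows, with role) in each of the 6 lines (columns), with calls at an adjusted p under 0.05 marked. P4ha2 is the only row called higher in every column, and falls gather in the columns of WT pLV2 line 2 and TRIM33_KO.

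The 10 markers of the 2-cell-like state, among them Zscan4c and Zfp352, all rose with DOX in each of the 6 lines. Without DOX they summed to 0.364 to 5.56 CPM. With DOX the sum was 2016 and 823 CPM in WT, 2416 and 1614 in DUXBL_KO, 1469 and 1802 in WT pLV2 line 1, 1664 and 2571 in TRIM24_KO, 5599 and 4123 in WT pLV2 line 2 and 8104 and 7443 in TRIM33_KO. The sum was thus highest in the 2 lines with the most members called lower, 17 of 38 each, and its part in those falls was not tested. Of the 10 embryonic stem cell markers, 5 fell and 1 rose in line 2 and in TRIM33_KO, 5 fell and 0 rose in TRIM24_KO, 2 fell and 2 rose in line 1, and 0 were called in WT and DUXBL_KO. Of the 5 tested trophoblast markers, 2 fell in line 2 and 2 in TRIM33_KO, 1 fell in line 1 and 0 were called in TRIM24_KO. The 6 listed trophoblast markers summed to 80.5 and 82.2 CPM in line 2 without DOX and 51.5 and 58.4 with it, and to 70.3 and 75.0 and then 37.9 and 49.1 in TRIM33_KO. Of the 4 tested feeder fibroblast markers, 1 rose and 1 fell in line 2, 2 rose and 1 fell in TRIM33_KO, 2 rose in TRIM24_KO and 1 rose in line 1. Of the 5 tested primitive endoderm markers, 1 fell in line 2 and 1 in TRIM33_KO, and 0 were called in line 1 and TRIM24_KO. Of all genes, 12.7% rose and 13.8% fell in line 2, and 16.4% and 20.0% in TRIM33_KO. The shares were 9.96% and 6.12% in line 1, 11.4% and 4.88% in TRIM24_KO, 2.86% and 0.116% in WT, and 4.52% and 0.399% in DUXBL_KO. The part of these markers in the members' falls was not tested. In bulk RNA, a smaller number of cells expressing a gene cannot be told apart from less RNA of that gene per cell.

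P4ha2 encodes a catalytic alpha subunit of collagen prolyl 4-hydroxylase, the enzyme of the endoplasmic reticulum that hydroxylates proline in procollagen. The gene (ENSMUSG00000018906.14) lies at chr11:54100095-54131665 on the plus strand of GRCm38. Its RefSeq promoter window, chr11:54100674-54100973 on the plus strand, is shown because P4ha2 is the member with the largest change. It runs from 250 bases before to 50 bases after an annotated start, and capitals mark ACGTG and GCGTG on either strand, of which it holds 2 each.
P4ha2: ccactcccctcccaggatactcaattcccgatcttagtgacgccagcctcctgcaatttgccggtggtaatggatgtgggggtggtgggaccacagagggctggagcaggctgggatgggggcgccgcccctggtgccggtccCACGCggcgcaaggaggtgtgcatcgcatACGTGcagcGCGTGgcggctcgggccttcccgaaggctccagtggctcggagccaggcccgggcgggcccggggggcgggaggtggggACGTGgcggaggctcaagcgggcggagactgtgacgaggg

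P4ha2 held 9.93 and 9.66 CPM without DOX and 151 and 67.6 with DOX in WT, and 6.52 and 9.51 against 143 and 109.6 in DUXBL_KO. In WT pLV2 line 1 it went from 15.4 and 13.9 to 131 and 141 CPM, and in line 2 from 26.0 and 32.0 to 351 and 324. TRIM24_KO had 12.2 and 11.7 without and 182 and 201 with DOX, and TRIM33_KO had 25.3 and 24.9 without and 519.7 and 467 with it. Every library with DOX was above every library without it, and within the pLV2 set TRIM33_KO and line 2 lay above the other 2 lines in both conditions. The log2 fold change was 3.48 ± 0.40 (SE) in WT, an 11.2-fold rise (adjusted p = 0.00589), and 3.98 ± 0.41 in DUXBL_KO (adjusted p = 0.0022). It was 3.21 ± 0.10 in line 1, 3.55 ± 0.10 in line 2, 4.0 ± 0.11 in TRIM24_KO and 4.29 ± 0.10, or 19.6-fold, in TRIM33_KO, with adjusted p-values of 3.34e-12, 1.97e-13, 2.44e-13 and 3.28e-14. The call in WT was lost without WT replicate 1 (adjusted p = 0.0649), without WT replicate 2 (adjusted p = 0.0728) and with only the compared groups in the fit (adjusted p = 0.0533), at log2 fold changes of 3.48 to 3.49.

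P4ha1, the paralog that encodes the other main alpha subunit, was not called higher in any line. It fell in TRIM33_KO, from 36.8 and 38.2 to 26.7 and 27.4 CPM (log2 fold change -0.47, adjusted p = 0.0135), a call lost without TRIM33_KO replicate 2 or either TRIM33_KO library with DOX (adjusted p from 0.0757 to 0.0955). Per kb of exon, P4ha2 made up 16.7 to 37.0% of the summed P4ha1 and P4ha2 level in the libraries without DOX and 66.2 to 92.8% in those with DOX. The composition of this pair thus turned over in every line. Of the genes next to P4ha2, Slc22a4, Gm12221, Gm12222 and 4933405E24Rik averaged 0 to 0.9 counts per library. The neighbour Pdlim4, which encodes a cytoskeletal LIM domain protein, was not called in 5 lines and fell in TRIM33_KO (log2 fold change -1.16, adjusted p = 0.0272).

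Egln3 and Egln1 encode prolyl hydroxylases that mark HIF1A for degradation, and both are themselves hypoxia-responsive. Together with Vegfa, which encodes the main angiogenic growth factor, and Hk1, a hexokinase that phosphorylates glucose, they were the 4 members that fell with DOX in all 4 pLV2 lines. Their RefSeq promoter windows on GRCm38 are shown because these genes moved together, with the motif cores again in capitals. All lie on the minus strand. They are Egln3 at chr12:54203825-54204124, Egln1 at chr8:124949205-124949504, the upstream of the windows of Vegfa at chr17:46032328-46032627 and that of Hk1 at chr10:62379859-62380158.
Egln3: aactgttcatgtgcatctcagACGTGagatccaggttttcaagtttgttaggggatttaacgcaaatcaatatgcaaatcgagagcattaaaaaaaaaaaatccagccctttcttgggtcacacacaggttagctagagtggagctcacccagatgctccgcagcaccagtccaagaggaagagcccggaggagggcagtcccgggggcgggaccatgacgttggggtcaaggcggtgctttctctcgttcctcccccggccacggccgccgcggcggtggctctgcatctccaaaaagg
Egln1: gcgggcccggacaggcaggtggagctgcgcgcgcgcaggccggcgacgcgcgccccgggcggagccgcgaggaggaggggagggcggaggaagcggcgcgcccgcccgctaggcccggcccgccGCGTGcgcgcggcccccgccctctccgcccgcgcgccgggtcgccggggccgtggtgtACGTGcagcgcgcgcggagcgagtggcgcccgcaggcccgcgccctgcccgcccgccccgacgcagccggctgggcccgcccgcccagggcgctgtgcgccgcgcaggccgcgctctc
Vegfa: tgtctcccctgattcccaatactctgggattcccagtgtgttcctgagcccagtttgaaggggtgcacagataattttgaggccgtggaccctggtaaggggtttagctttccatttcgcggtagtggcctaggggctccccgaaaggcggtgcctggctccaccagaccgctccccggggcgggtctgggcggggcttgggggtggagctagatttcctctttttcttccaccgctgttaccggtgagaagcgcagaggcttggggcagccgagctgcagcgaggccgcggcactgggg
Hk1: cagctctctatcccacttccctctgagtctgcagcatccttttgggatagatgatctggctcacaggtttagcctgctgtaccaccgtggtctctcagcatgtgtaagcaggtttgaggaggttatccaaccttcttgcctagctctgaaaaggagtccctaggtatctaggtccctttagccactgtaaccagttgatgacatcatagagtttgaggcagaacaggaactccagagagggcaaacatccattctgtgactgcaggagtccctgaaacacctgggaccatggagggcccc

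These windows differ in the motif cores. Egln3 holds 1 ACGTG and 0 GCGTG, Egln1 holds 1 of each, and the windows shown for Vegfa and Hk1 hold neither. The other Vegfa window (chr17:46025114-46025413) holds 1 of each and the other Hk1 window (chr10:62340372-62340671) holds 2 ACGTG and 3 GCGTG. Over all members, 35 of 37 symbols had a window in the table. ACGTG was present in 29 of 51 member windows (56.9%) and in 19.6% of the 32851 windows of all genes, and GCGTG in 52.9% and 32.4%. The E-box CACGTG, which contains ACGTG, was present in 11.8% of member windows and 7.15% of all. The DUX-type motif GATTNAATC was present in 0 of 51 member windows and in 0.268% of all, too rare for 0 of 51 to set the members apart. The P4ha2 window begins downstream of the gene's annotated start at 54100095, so the sequence before that start was not searched. Both strands were searched, member windows were richer in G and C (median 62.0% against 52.7%), and a match of letters does not show binding.

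Egln3 (ENSMUSG00000035105.5, chr12:54178981-54203860, minus strand) went from 51.9 and 55.2 to 31.8 and 35.6 CPM in WT pLV2 line 1 and from 28.7 and 39.2 to 10.9 and 15.7 in line 2. It went from 57.3 and 58.7 to 28.5 and 32.4 in TRIM24_KO and from 31.8 and 26.9 to 8.80 and 6.07 in TRIM33_KO. In WT it went from 15.7 and 16.6 to 7.80 and 12.4 and in DUXBL_KO from 15.0 and 13 to 8.41 and 7.05. In each of the 6 lines the libraries with DOX were below those without it. The log2 fold changes were -0.67 ± 0.16 (SE), -1.35 ± 0.17, -0.94 ± 0.16 and -1.96 ± 0.20 in the pLV2 lines in that order (adjusted p = 0.00671, 1.58e-05, 0.00044 and 6.1e-07). The values for WT, -0.68 ± 0.23, and DUXBL_KO, -0.86 ± 0.24, were of like size to line 1 but did not pass the threshold (adjusted p = 0.297 and 0.115).

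Egln1 (ENSMUSG00000031987.6, chr8:124908587-124949324, minus strand) held 32.9 and 30.1 CPM without and 23.2 and 22.5 with DOX in line 1, and 33.7 and 41.1 against 17.9 and 17.2 in line 2. It went from 35.0 and 30.0 to 21.2 and 23.4 in TRIM24_KO and from 37.1 and 36.0 to 15.6 and 15.2 in TRIM33_KO. Groups did not overlap in these lines, which is part of the rule by which library values are given. The log2 fold changes were -0.46 ± 0.11, -1.09 ± 0.11, -0.55 ± 0.11 and -1.24 ± 0.12 (adjusted p = 0.00777, 9.89e-07, 0.00233 and 2.46e-07). WT (19.6 and 19.7 against 13 and 15.0) and DUXBL_KO (19.4 and 24.7 against 12.7 and 20.8) gave -0.48 and -0.39, neither past the threshold. Hif1a itself, the oxygen-regulated subunit, was not called in any line, at log2 fold changes between -0.07 and 0.10.

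Vegfa (ENSMUSG00000023951.18, chr17:46016993-46032369, minus strand) dropped from 55.6 and 56.4 to 41.3 and 45.7 CPM in line 1, from 51.6 and 52.0 to 23.6 and 28.5 in line 2, from 80.2 and 77.0 to 45.0 and 48.9 in TRIM24_KO and from 46.5 and 47.2 to 23.6 and 20.6 in TRIM33_KO. The groups did not overlap in any of these 4 lines, which the rule for giving library values asked in line 2, TRIM24_KO and TRIM33_KO. In log2 terms the changes were -0.36 ± 0.09, -0.99 ± 0.09, -0.75 ± 0.09 and -1.08 ± 0.10 (adjusted p = 0.00928, 3.35e-07, 8.49e-06 and 1.59e-07). WT libraries spread widely, with 25.8 and 37.7 CPM without and 13.3 and 37.8 with DOX, and no call was made there or in DUXBL_KO.

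Hk1 (ENSMUSG00000037012.18, chr10:62268855-62379908, minus strand) had the smallest falls of the 4. Its level went from 116 and 124 to 96.1 and 96.9 CPM in line 1, from 67.8 and 75.1 to 51.9 and 56.7 in line 2, from 93.2 and 102 to 79.8 and 75.9 in TRIM24_KO and from 69.3 and 63.9 to 46.1 and 40.8 in TRIM33_KO. No groups overlapped, and the log2 fold changes were -0.32 ± 0.08, -0.40 ± 0.08, -0.32 ± 0.08 and -0.61 ± 0.08 (adjusted p = 0.00941, 0.00151, 0.0095 and 2.32e-05). How many of the 4 genes were called in all 4 lines rests on line 1. Without WT pLV2 line 1 replicate 1 or 2, or its DOX replicate 1, 1 of the 4 was, and 2 were without DOX replicate 2. In TRIM24_KO the Hk1 call was also lost without replicate 2 (adjusted p = 0.0722) or DOX replicate 2 (adjusted p = 0.0907), and in line 2 with only the compared groups fitted (adjusted p = 0.0514).

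**Figure D3:**
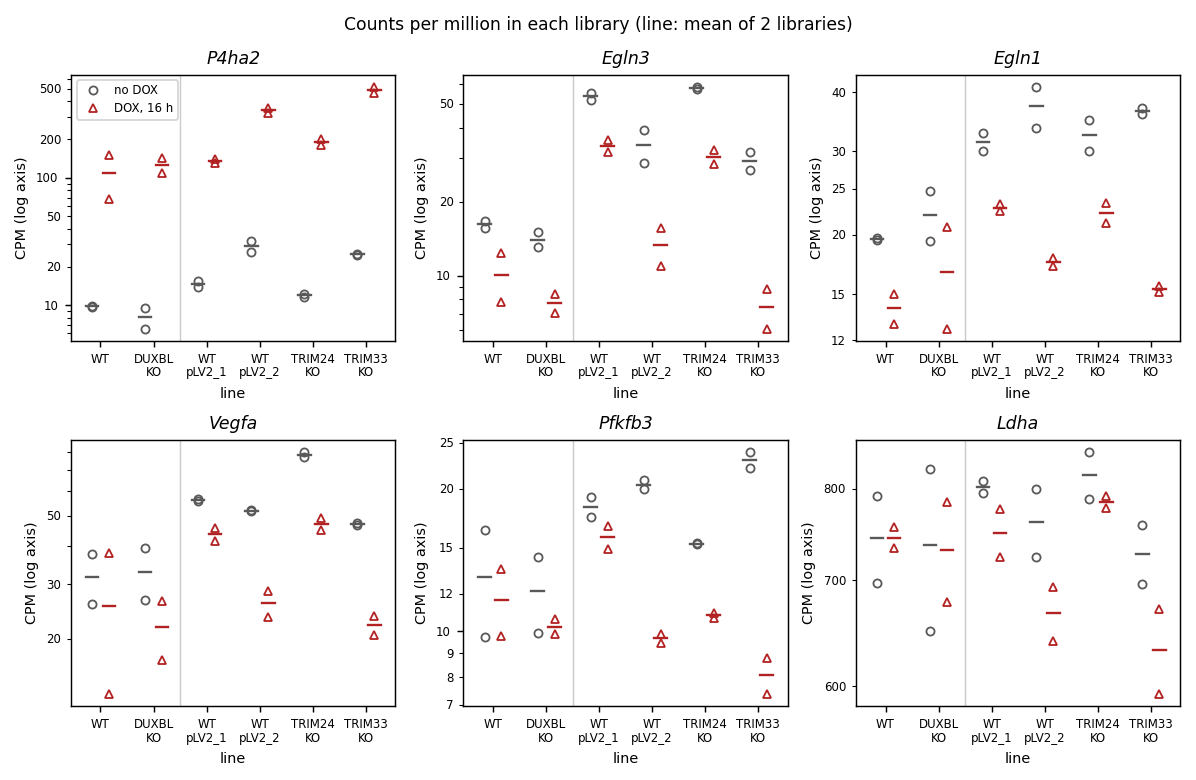
CPM of 6 members in each library (points) with the mean of each group (lines), without DOX and after 16 h of DOX, on log axes; the 2 sets, parted by the grey line, were scaled apart. P4ha2 libraries with DOX lie above all others, Egln3, Egln1, Vegfa and Pfkfb3 lie lower with DOX in line 2 and TRIM33_KO, and Ldha shifts little.

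Of the 8 hypoxia targets, among which P4ha2 rose, 5 fell in line 2 and 6 in TRIM33_KO, 2 in line 1 and 1 in TRIM24_KO. The shares of all genes that fell were 13.8%, 20.0%, 6.12% and 4.88% in that order. Ndrg1, a stress-responsive gene, went from 29.1 and 41.6 to 10.4 and 16.4 CPM in line 2 (log2 fold change -1.39 ± 0.17, adjusted p = 9.18e-06) and from 43.1 and 41.4 to 13.9 and 14.5 in TRIM33_KO (-1.58 ± 0.17, adjusted p = 1.94e-06). In line 1 it had 43.6 and 43.8 without and 34.9 and 33.1 with DOX, groups that did not overlap but gave no call (adjusted p = 0.135). Mxi1, an antagonist of MYC, went from 37.6 and 40.5 to 28.0 and 28.0 CPM in line 1 (-0.48 ± 0.11, adjusted p = 0.00611) and fell by 0.80 and 0.74 on the log2 scale in line 2 and TRIM33_KO. The line 1 call of Mxi1 was lost without replicate 2 (adjusted p = 0.109) or DOX replicate 2 (adjusted p = 0.0521).

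Bnip3, which encodes a mitophagy receptor, went from 57.6 and 79.1 to 30.5 and 46.5 CPM in line 2 and from 79.4 and 78.4 to 36.1 and 37.3 in TRIM33_KO. It fell there by 0.82 and 1.11 on the log2 scale, and the values in line 1 and TRIM24_KO were 0.07 and 0.06, without a call. Near-identical copies of Bnip3 held a median of 5.74% and up to 23.2% of the counts of the gene and its copies together, so its level is uncertain by about that share. With only line 2 fitted, its fall there missed the threshold (adjusted p = 0.0502). Ankrd37, an ankyrin repeat gene at low level, fell by 0.68 in line 2 and 1.02 in TRIM33_KO, and the line 2 call was lost without replicate 1 (adjusted p = 0.129) or DOX replicate 2 (adjusted p = 0.107), under DESeq2 (adjusted p = 0.0665) and with only the compared groups fitted (adjusted p = 0.0875). Car9 did not exceed 21 counts in any library and was not called in any line; it did not pass the count filter in the WT and DUXBL_KO set.

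Among the upper glycolytic rows, 6 of 11 fell in line 2 and in TRIM33_KO, 4 in TRIM24_KO and 2 in line 1, and 0 rose anywhere. The shares of all genes that fell were 13.8%, 20.0%, 4.88% and 6.12% in that order. Pfkfb3, which makes the activator of phosphofructokinase and is hypoxia-responsive, had the largest fall of this group in line 2, TRIM24_KO and TRIM33_KO. Its level was 20.8 and 19.9 CPM without and 9.85 and 9.47 with DOX in line 2. It went from 23.9 and 22.1 to 8.80 and 7.37 in TRIM33_KO, from 15.3 and 15.4 to 10.9 and 10.7 in TRIM24_KO and from 17.4 and 19.2 to 14.9 and 16.7 in line 1. The groups did not overlap in any of the 4, which the rule for giving library values asked in line 2 and TRIM33_KO. The changes were -1.08 ± 0.11, -1.50 ± 0.12 and -0.50 ± 0.12 (adjusted p = 1.28e-06, 2.75e-08 and 0.00695), whereas line 1, at -0.21 ± 0.11, was not called (adjusted p = 0.213). In TRIM24_KO the call was lost without DOX replicate 2 (adjusted p = 0.0524) and with only the compared groups fitted (adjusted p = 0.054).

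Hk2, the hexokinase that made up most of the Hk1 and Hk2 level per kb (72.2 to 88.8% over all libraries), went from 251 and 217 to 128 and 125 CPM in TRIM33_KO (-0.89 ± 0.08, adjusted p = 3.08e-07) and from 226 and 224 to 137 and 156 in line 2 (-0.62 ± 0.08, adjusted p = 2.92e-05). In TRIM24_KO it had 517 and 481 without and 441 and 391 with DOX (-0.26, adjusted p = 0.039), a call lost without replicate 1 (adjusted p = 0.232), without DOX replicate 2 (adjusted p = 0.313) and with only the compared groups fitted (adjusted p = 0.106). Even with DOX, TRIM24_KO stood above every library of the other lines.

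Of the 3 phosphofructokinase genes, which set the pace of upper glycolysis, Pfkp and Pfkm each fell in 3 lines and shared line 2 and TRIM33_KO. Pfkp went from 306 and 313 to 244 and 239 CPM in TRIM24_KO (-0.36 ± 0.08, adjusted p = 0.00583) and fell by 0.59 and 0.78 on the log2 scale in line 2 and TRIM33_KO. Pfkm, the muscle-type subunit, went from 49.5 and 50.1 to 37.8 and 37.5 CPM in line 1 (-0.40 ± 0.08, adjusted p = 0.00205), fell by 0.36 in line 2 and by 0.26 in TRIM33_KO, and was at -0.01 in TRIM24_KO. Its call in line 2 was lost without DOX replicate 1 (adjusted p = 0.0742) and with only the compared groups fitted (adjusted p = 0.107), and that in TRIM33_KO without any of its 4 libraries (adjusted p from 0.0742 to 0.219) and under 4 other settings (adjusted p from 0.0504 to 0.256, the last under DESeq2). Pfkl, the liver-type subunit, was not called in any line. Pfkp and Pitrm1 overlap by 748 bp on opposite strands, so reads there rest on how strand was treated in counting.

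Tpi1, triose phosphate isomerase, fell by 0.29 in line 2 and 0.32 in TRIM33_KO. The line 2 call was lost under 7 alternatives (adjusted p from 0.0589 to 0.614), among them without line 2 replicate 2 or DOX replicate 1. That of TRIM33_KO was lost under 5 (adjusted p from 0.0565 to 0.395), among them without replicate 1, replicate 2 or DOX replicate 2. Gpi1, Aldoa, the second Aldoa locus and Aldoc, which encode the isomerase and aldolases of this segment, were not called in any line. Of the glucose carriers, Slc2a1 (GLUT1) fell by 0.40 in line 2, from 321 and 328 to 234 and 258 CPM, and by 0.67 in TRIM33_KO, from 311 and 308 to 197 and 193. Slc2a3 (GLUT3) went the other way in TRIM33_KO, from 904 and 827 to 1002 and 1031 CPM (0.23 ± 0.07, adjusted p = 0.0133), a rise lost without TRIM33_KO replicate 2 (adjusted p = 0.0957). Slc2a1 thereby went from 41.6 and 43.5% to 28.9 and 27.9% of the summed Slc2a1 and Slc2a3 level per kb in TRIM33_KO.

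In lower glycolysis, which carries the triose intermediates to pyruvate, few calls were made. Gapdh, Pgk1, Pgam1, Eno1 and Pkm were not called in any of the 6 lines, and Eno2, the neuronal enolase at low level, was called in line 2 only (6.54 and 6.07 to 2.52 and 3.80 CPM, -0.99, adjusted p = 0.00766), which was lost without line 2 DOX replicate 1 (adjusted p = 0.11). Gapdh ranged from 0.04 to 0.16 in log2 fold change over the lines and Pkm from 0.05 to 0.19. Near-identical copies of Eno1 held a median of 12.1% of the counts of Eno1 and its copies.

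Among the lactate genes, Ldha and Ldhb, the subunits of lactate dehydrogenase, were not called. Ldha went from 759 and 697 to 672 and 593 CPM in TRIM33_KO (-0.20, adjusted p = 0.0584). The lactate carriers moved apart. Slc16a3 (MCT4), which is hypoxia-responsive, went from 111 and 128 to 59.6 and 75.5 CPM in line 2 and from 124 and 110.0 to 59.5 and 55.4 in TRIM33_KO, where it fell by 0.82 and 1.03 on the log2 scale. It also fell in line 1, by 0.38 (adjusted p = 0.0321), a call lost without any of its 4 libraries (adjusted p from 0.0515 to 0.378) and without CT010467.1 in the tables (adjusted p = 0.0534).

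Slc16a1 (MCT1) rose in TRIM33_KO, from 130.1 and 111 to 144 and 147 CPM (0.27 ± 0.07, adjusted p = 0.00808), and in TRIM24_KO, from 108 and 103 to 123 and 131 (0.27 ± 0.07, adjusted p = 0.0182). In WT it had 136 and 146 CPM without and 177 and 183 with DOX, and in DUXBL_KO 165 and 162 without and 201 and 209 with it. These groups did not overlap, but the values of 0.35 and 0.33 missed the threshold (adjusted p = 0.0876 and 0.0804). With replicate number added to the edgeR fit as a block, both passed it (adjusted p = 0.0241 and 0.022). The labels do not say that replicate numbers mark a shared batch. The TRIM33_KO call was lost without replicate 2 (adjusted p = 0.105), and that of TRIM24_KO without replicate 1, replicate 2 or DOX replicate 2 (adjusted p = 0.0517, 0.191 and 0.134), without a count filter (adjusted p = 0.0711) and with only the compared groups fitted (adjusted p = 0.0614).

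At the pyruvate dehydrogenase step, Pdk1, the kinase that switches the complex off and a known hypoxia target, fell by 0.47 in line 2, from 159 and 154 to 111 and 115 CPM, and by 0.60 in TRIM33_KO, from 162 and 147 to 108 and 95.6. Pdha1, Pdhb and Dlat, which encode the complex itself, were not called in any line.

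Calls of a fall were then counted per row over the 4 pLV2 lines. Of 38 rows, 20 fell in 0 lines, 2 in 1, 6 in 2, 6 in 3 and 4 in all 4. Of all 18079 genes tested in these lines, 13781 fell in 0 lines, 1907 in 1, 1350 in 2, 673 in 3 and 368 in all 4. Line 2 and TRIM33_KO each had 17, of which 16 were shared (94.1% of each), and the 7 of line 1 and the 7 of TRIM24_KO were all among both sets of 17. Over all genes, line 2 and TRIM33_KO shared 2074 falls, 83.0% of those of line 2 and 57.4% of those of TRIM33_KO. Over all genes, 74.4% of the falls of line 1 were also falls in line 2 and 84.5% in TRIM33_KO, and of those of TRIM24_KO 71.4% and 79.5% were. Line 1 and TRIM24_KO shared 4 of 7 (57.1% of each), and over all genes they shared 414, 37.4% of those of line 1 and 46.9% of those of TRIM24_KO. Nothing particular to the members is read from these overlaps. The 18 rows that fell in at least 1 pLV2 line were also measured in the separate WT and DUXBL_KO libraries. There 14 of 18 were below 0 in each line, with medians of -0.17 and -0.23. Over all members, 19 of 37 were below 0 in each line, with a median of -0.01. The same was not counted for all genes that fell in a pLV2 line, so nothing particular to the members is read from it. None of the 18 rows was called in WT or DUXBL_KO.

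The difference in DOX effect between lines was tested as an interaction, relative to the mean of both WT pLV2 lines for TRIM24_KO and TRIM33_KO. For TRIM33_KO, 1 of 38 rows was higher and 2 were lower, against 0.476% and 0.0774% of genes. P4ha2 rose more (0.92 ± 0.12 on the log2 scale, adjusted p = 0.00178), and Pfkfb3 (-0.86 ± 0.14, adjusted p = 0.0099) and Hk2 (-0.50 ± 0.10, adjusted p = 0.0336) fell more. All 3 calls rest on the reference: against line 2 alone the values were 0.75, -0.42 and -0.27 with adjusted p-values of 0.377, 1 and 1, whereas 10 members were called against line 1 alone. The Hk2 call was also lost under median-of-ratios scaling (adjusted p = 0.0517) and without 9 of the 12 libraries in turn (adjusted p from 0.0581 to 0.186), and that of Pfkfb3 without TRIM33_KO replicate 1 (adjusted p = 0.0607) or DOX replicate 2 (adjusted p = 0.0845).

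For TRIM24_KO, 1 row was higher and 0 lower, against 0.315% and 0.0719% of genes, and 33 of 38 values were above 0 (median 0.13 against 0.05 over all genes). The row was P4ha2 (0.63 ± 0.12, adjusted p = 0.0396), and the call was lost under median-of-ratios scaling (adjusted p = 0.0865), without CT010467.1 (adjusted p = 0.0847), with only the compared groups fitted (adjusted p = 0.0783), against line 2 alone (0.46, adjusted p = 0.212) and without 10 of the libraries in turn, each of the 4 libraries of TRIM24_KO among them (adjusted p from 0.0558 to 0.398). At an unadjusted p under 0.05, 9 members were higher and 1 lower, and DESeq2 called 1 higher and 0 lower.

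Between the WT lines, 0 rows were higher and 1 lower in line 2 relative to line 1, against 0.188% and 0.0553% of genes, and 31 of 38 values were below 0 (median -0.16 against -0.04). Pfkfb3 fell more in line 2 (-0.86 ± 0.16, adjusted p = 0.0257), a call lost without 7 of the 8 libraries in turn (adjusted p from 0.0564 to 0.163) and with only the compared groups fitted (adjusted p = 0.072). DESeq2 called 0 higher and 4 lower, and an unadjusted p under 0.05 was reached by 1 and 13. Vegfa (-0.63, adjusted p = 0.0636) and Ndrg1 (-1.03, adjusted p = 0.0987) missed the threshold. For DUXBL_KO against WT, 0 rows were called in either direction, as were 0% of genes each way. The unadjusted counts there were 0 and 0, and so were those of DESeq2. There were 2 libraries per group and a coefficient of variation of 17.6%, and what size of difference could be detected was not tested. The absence of calls therefore does not show that the 2 lines responded alike.

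Lines were next compared without DOX. In TRIM24_KO, Slc2a1 and Hk2, which bring in and phosphorylate glucose, were higher, and Ldhb was lower. Relative to the mean of both WT pLV2 lines (n = 4 libraries, also the reference of TRIM33_KO), 7 of 38 rows were higher and 12 lower in the libraries labelled TRIM24_KO, against 20.9% and 22.4% of genes. The shares of rows called were 18.4% and 31.6%, with a median of -0.04 against -0.02 over all genes. This balance rests on the reference: 5 rows were higher and 14 lower against line 1 alone (median -0.22), and 13 higher and 12 lower against line 2 alone (median 0.11). Without TRIM24_KO replicate 1 the total was 12 rather than 19.

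Hk2 (ENSMUSG00000000628.10, chr6:82725025-82774454, minus strand) stood at 517 and 481 CPM in TRIM24_KO, 222 and 227 in line 1 and 226 and 224 in line 2. The log2 fold change was 1.15 ± 0.07 (adjusted p = 1.51e-09). Slc2a1 (ENSMUSG00000028645.11, chr4:119108711-119137983, plus strand) stood at 599.5 and 516 CPM against 327 and 325 in line 1 and 321 and 328 in line 2 (0.78 ± 0.07, adjusted p = 1.96e-07). Both genes were picked in part because the TRIM24_KO libraries did not overlap the 4 WT libraries, as in 18 of 38 rows, and both lay above them. Slc2a1 made up 66.9 and 62.2% of the Slc2a1 and Slc2a3 level per kb in TRIM24_KO, 48.7 and 48.5% in line 1 and 41.6 and 40.3% in line 2, and Slc2a3 itself was lower (613 and 647 CPM against 713 and 713 in line 1 and 932 and 1004 in line 2, -0.40 ± 0.06, adjusted p = 4.6e-05), a call lost against line 1 alone (-0.18, adjusted p = 0.0525).

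Ldhb (ENSMUSG00000030246.12, chr6:142490249-142507957, minus strand), whose product favours the conversion of lactate to pyruvate, stood at 17.2 and 23.3 CPM in TRIM24_KO, 68.8 and 72.7 in line 1 and 117 and 149 in line 2. The log2 fold change was -2.25 ± 0.13 (adjusted p = 7.21e-10), the largest of any member in this comparison. Ldhb thus made up 4.13 and 5.87% of the Ldha and Ldhb level per kb in TRIM24_KO, 15.2 and 16.2% in line 1 and 25.4 and 28.1% in line 2, while Ldha did not differ past the threshold (0.06, adjusted p = 0.505). Pdk1 was higher (281 and 256 CPM against 194 and 184 in line 1 and 159 and 154 in line 2, 0.64 ± 0.06, adjusted p = 5.33e-07), as was Pdhb, a subunit of the complex that Pdk1 inhibits (128 and 119 against 98.8 and 107 in line 1 and 71.0 and 78.7 in line 2, 0.50 ± 0.06, adjusted p = 8.16e-06).

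P4ha2 was lower in TRIM24_KO without DOX (12.2 and 11.7 CPM against 15.4 and 13.9 in line 1 and 26.0 and 32.0 in line 2, -0.79 ± 0.10, adjusted p = 7.61e-06), and so was Slc16a1 (108 and 103 against 120.0 and 121 in line 1 and 139.7 and 150.0 in line 2, -0.33 ± 0.06, adjusted p = 0.00052). The P4ha2 difference missed the threshold against line 1 alone (-0.30, adjusted p = 0.059). Vegfa (0.55), Egln3 (0.45) and Dlat (0.17) were the other rows called higher, the last 2 lost against line 1 alone (adjusted p = 0.6 and 0.121) and without TRIM24_KO replicate 1 (adjusted p = 0.0509 and 0.189). The other lower rows were Eno2, Aldoc, Ankrd37, Slc16a3, Pfkfb3, Pfkm, Tpi1 and Pfkp, from -0.87 to -0.26. Of those, Pfkp, Pfkfb3 and Tpi1 lost the call without either TRIM24_KO library (adjusted p from 0.0562 to 0.101), Eno2 and Ankrd37 without replicate 1 (adjusted p = 0.0528 and 0.074) and Slc16a3 without replicate 2 (adjusted p = 0.0697). Pfkm was at -0.01 against line 2 alone (adjusted p = 0.971), and Ankrd37 and Pfkfb3 missed the threshold against line 1 alone (adjusted p = 0.0728 and 0.0687).

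Markers of several cell types were also called in this comparison, where 20.9% of all genes were higher and 22.4% lower. Of 10 embryonic stem cell markers, 3 were higher and 5 lower in TRIM24_KO, of 5 trophoblast markers tested 3 were higher and 1 lower, and of 4 feeder markers tested 0 were higher and 2 lower. Of 5 primitive endoderm markers tested, 4 were higher and 0 lower, and the 6 markers listed summed to 22.9 and 19.3 CPM there and 5.69 and 6.11 in line 1 and 4.17 and 3.49 in line 2. Among them Foxa2 had at most 4 counts in any library. The 6 trophoblast markers summed to 38.5 and 43.7 CPM in TRIM24_KO, 61.2 and 64.9 in line 1 and 80.5 and 82.2 in line 2. The part of these markers in the values of TRIM24_KO was not tested. In the same libraries Epas1 (HIF2A) was higher by 1.55 and Vhl, the ubiquitin ligase subunit that recognises hydroxylated HIF, lower at -0.83 on the log2 scale (adjusted p = 1.79e-10 and 1.19e-05).

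**Figure D4:**
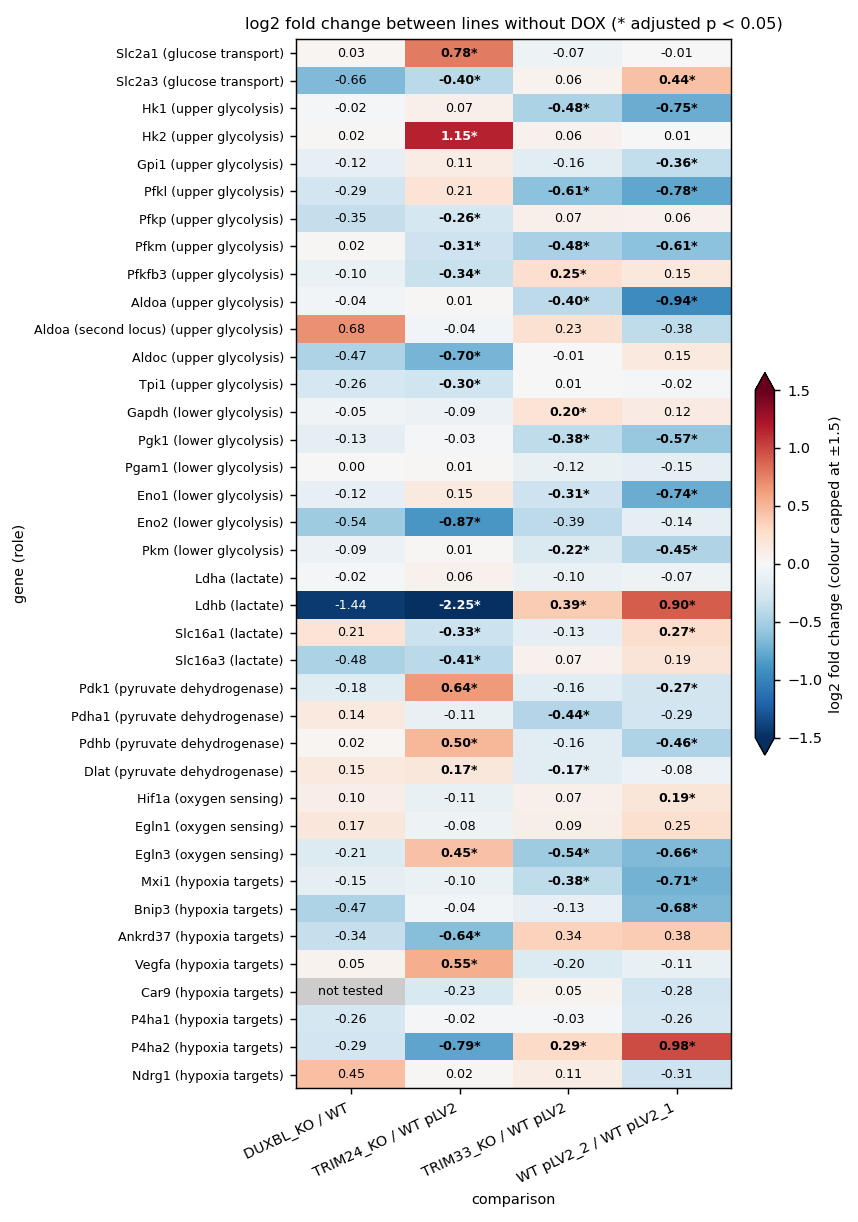
Log2 difference of each member (rows) between lines without DOX (columns), with calls at an adjusted p under 0.05 marked. Ldhb is the lowest value for TRIM24_KO and Hk2 the highest.

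In the libraries labelled TRIM33_KO, 4 of 38 rows were higher and 11 lower without DOX, against 12.6% and 10.9% of genes. Which WT line served as the reference decided this comparison: 6 rows were higher and 17 lower against line 1 alone, and 0 were called against line 2 alone. Of all 18079 genes, 3636 were higher and 3714 lower against line 1 alone, but 203 and 70 against line 2 alone, so few calls were made there for genes of any kind. Pfkm stood at 28.4 and 29.2 CPM in TRIM33_KO, 32.1 and 33.0 in line 2 and 49.5 and 50.1 in line 1 (-0.48 ± 0.07 against their mean, adjusted p = 0.000145; -0.18 and adjusted p = 0.419 against line 2). Pdha1 stood at 163 and 158 against 168 and 228 in line 2 and 236 and 245 in line 1 (-0.44 ± 0.11, adjusted p = 0.00778; -0.30 and adjusted p = 0.353 against line 2). Both genes were picked in part because the TRIM33_KO libraries did not overlap the 4 WT libraries, as in 6 of 38 rows. The TRIM33_KO values lay below those of WT and nearest to line 2. Hk1 had the lowest adjusted p of the members (0.000128) but overlapped the WT libraries. It stood at 69.3 and 63.9 CPM against 67.8 and 75.1 in line 2 and 116 and 124 in line 1.

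Dlat (66.8 and 64.4 CPM against 72.4 and 70.5 in line 2 and 73.2 and 78.3 in line 1, -0.17 ± 0.05, adjusted p = 0.0337) and Pfkfb3 (23.9 and 22.1 against 20.8 and 19.9 in line 2 and 17.4 and 19.2 in line 1, 0.25 ± 0.09, adjusted p = 0.0434) were picked by the same rule. Both calls were lost against line 2 alone (adjusted p = 0.473 and 0.555) and without either TRIM33_KO library. Against line 2 alone, Aldoa, Eno1 and Pkm, called lower than the mean of both lines, were at 0.07, 0.06 and 0.00299, and Ldhb and P4ha2, called higher, were at -0.07 and -0.20. The total was 4 rather than 15 without TRIM33_KO replicate 2.

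The WT lines themselves differed. In line 2 relative to line 1, 5 of 38 rows were higher and 13 lower, against 18.9% and 19.2% of genes, with a median of -0.14 against 0.00 over all genes. The lower rows were spread over upper glycolysis (5), lower glycolysis (3), the pyruvate dehydrogenase step (2), hypoxia targets (2) and oxygen sensing (1). Aldoa (ENSMUSG00000030695.16, chr7:126795234-126800751, minus strand) stood at 867 and 1068 CPM in line 2 and 1841 and 1870.2 in line 1 (-0.94 ± 0.10, adjusted p = 2.17e-06). Eno1 stood at 889 and 1007 against 1596 and 1573 (-0.74 ± 0.08, adjusted p = 1.81e-06), Hk1 at 67.8 and 75.1 against 116 and 124 (-0.75 ± 0.08, adjusted p = 1.8e-06) and Pfkm at 32.1 and 33.0 against 49.5 and 50.1 (-0.61 ± 0.08, adjusted p = 1.63e-05). These 4 genes were picked in part because the libraries of the 2 lines did not overlap, as in 31 of 38 rows. That share was not taken over all genes.

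The rows higher in line 2 were P4ha2 (26.0 and 32.0 CPM against 15.4 and 13.9, 0.98 ± 0.11, adjusted p = 3.04e-06), Ldhb (117 and 149 against 68.8 and 72.7, 0.90 ± 0.12, adjusted p = 2.63e-05), Slc2a3 (932 and 1004 against 713 and 713, 0.44 ± 0.07, adjusted p = 8.6e-05), Slc16a1 (139.7 and 150.0 against 120.0 and 121, 0.27 ± 0.07, adjusted p = 0.0077) and Hif1a (0.19, adjusted p = 0.0496). The Hif1a call was lost under DESeq2 (adjusted p = 0.0749), under median-of-ratios scaling (adjusted p = 0.0508), and without either line 1 library or line 2 replicate 1 (adjusted p from 0.0784 to 0.154). Gpi1, Egln3 and Bnip3 were called lower only with line 2 replicate 1 in the fit (adjusted p without it 0.065, 0.0803 and 0.0649), and Pdk1 was lost without line 1 replicate 1 or either line 2 library (adjusted p from 0.057 to 0.142). The feeder fibroblast markers summed to 33.5 and 26.4 CPM in line 2, 14.4 and 13.6 in line 1 and 25.6 and 25.2 in TRIM33_KO without DOX. Of 4 tested, 3 were higher and 0 lower in line 2 than in line 1, and likewise 3 and 0 in TRIM33_KO against both WT pLV2 lines. Of 10 embryonic stem cell markers, 3 were higher and 5 lower in line 2, and 2 were higher and 3 lower in TRIM33_KO. Of the 10 2-cell-like markers, 3 were lower and 0 higher in line 2, and 0 were called in TRIM33_KO. Of 5 trophoblast markers tested, 1 was higher and 1 lower in line 2, and 0 were higher and 1 lower in TRIM33_KO, while of 5 primitive endoderm markers 1 was lower in line 2 and 0 were called in TRIM33_KO. Of all genes, 18.9% were higher and 19.2% lower in line 2, and 12.6% and 10.9% in TRIM33_KO. The part of these markers in the members' differences was not tested.

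**Figure D5:**
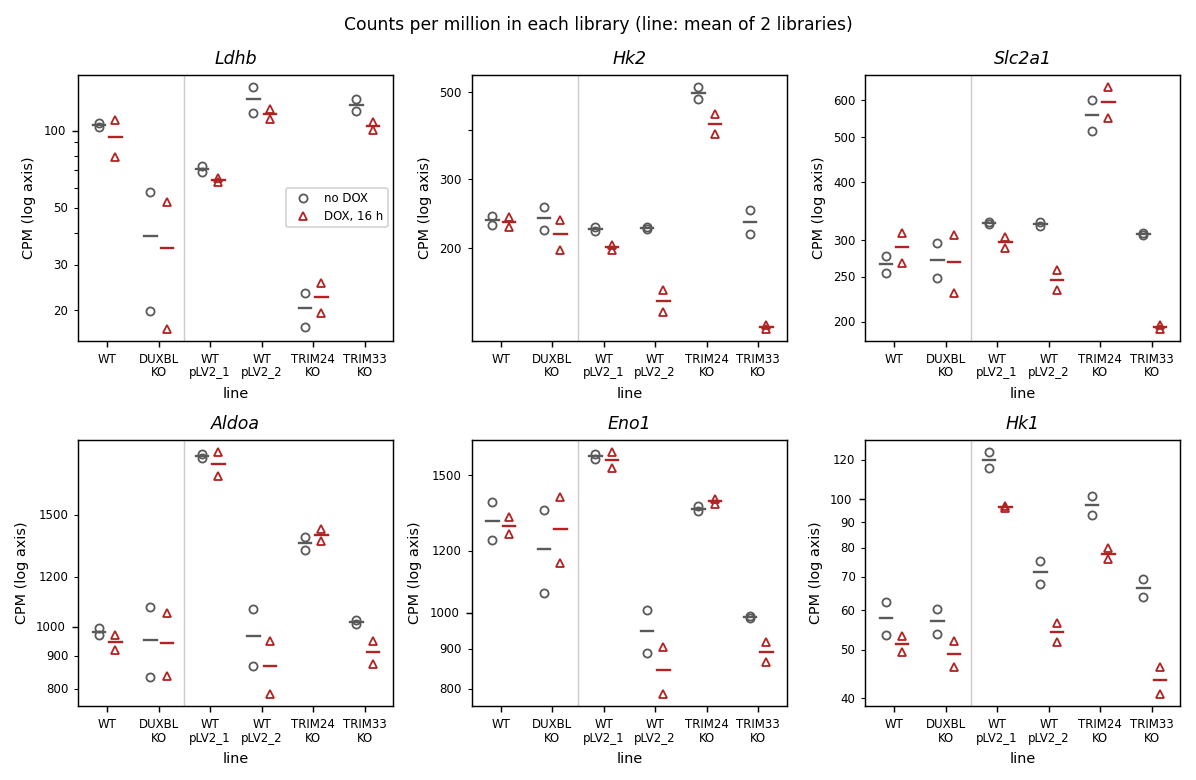
CPM of 6 members in each library (points) with group means (lines), without and with DOX, on log axes; the 2 sets, parted by the grey line, were scaled apart. Within the pLV2 set, group means are lowest for Ldhb and highest for Hk2 and Slc2a1 in TRIM24_KO, and Aldoa, Eno1 and Hk1 are lower in line 2 and TRIM33_KO than in line 1.

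In DUXBL_KO without DOX, 0 of 37 rows were called against WT, and 0% and 0.0388% of genes were called higher and lower. At an unadjusted p under 0.05, 2 members were higher and 2 lower, and DESeq2 called 0 higher and 1 lower. The lowest adjusted p was 0.163, for Slc2a3 (639 and 551 CPM against 871 and 1012 in WT, -0.66 ± 0.12). With replicate number added to the edgeR fit as a block, Slc2a3 was called lower (adjusted p = 0.031). The labels do not say that replicate numbers mark a shared batch. Ldhb had the largest difference, at 57.6 and 19.8 CPM against 103 and 107 in WT (-1.44 ± 0.59, adjusted p = 0.547). The DUXBL_KO libraries were below both WT libraries but differed from each other, replicate 2 being the lower, and that library also had the higher sum of primitive endoderm markers (4.69 and 13.5 CPM).

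The wider pathway was read from lists of genes that are not members, beside the shares of all genes called with DOX (12.7% higher and 13.8% lower in line 2, 16.4% and 20.0% in TRIM33_KO, 9.96% and 6.12% in line 1, 11.4% and 4.88% in TRIM24_KO). Of 21 other HIF targets tested in the pLV2 set, 11 fell and 1 rose with DOX in TRIM33_KO, 8 fell and 1 rose in line 2, 3 and 1 in line 1, and 3 and 2 in TRIM24_KO. In WT and DUXBL_KO, 0 of 20 were called. Medians were -0.36, -0.31, -0.14 and -0.03 in the pLV2 lines, and -0.14 and -0.10 in WT and DUXBL_KO. Bhlhe40, a transcriptional repressor induced by hypoxia, fell by 2.35 on the log2 scale in TRIM33_KO (adjusted p = 2.89e-07), by 1.72 in line 2 (adjusted p = 3.85e-06) and by 0.66 in line 1 (adjusted p = 0.00806). Wsb1, a ubiquitin ligase component, rose by 0.52, 0.42 and 0.38 in the same lines (adjusted p = 1.05e-05, 0.000132 and 0.000668).

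Of 12 HIF regulators, 2 rose and 4 fell in TRIM33_KO, 2 and 3 in line 2, 2 and 3 in line 1, 2 and 0 in TRIM24_KO, 1 and 0 in DUXBL_KO and 0 and 0 in WT. The 2 that rose are 16.7% of the list, near the 16.4% of all genes in TRIM33_KO and the 12.7% in line 2. Eloc, elongin C of the VHL ligase, rose by 0.77, 0.63 and 0.74 in TRIM33_KO, line 2 and line 1 (adjusted p = 4.98e-05, 0.000512 and 0.000264) and by 0.51 in DUXBL_KO (adjusted p = 0.0449). Hif3a, a HIF subunit induced by hypoxia, fell by 1.03 in TRIM33_KO and 1.10 in line 2 (adjusted p = 0.000734 and 0.000347). Of 17 other glycolytic isozymes and regulators, at most 2 rose and 3 fell in any line. Tigar, which lowers the phosphofructokinase activator that Pfkfb3 makes, rose by 0.62 in TRIM33_KO, 0.37 in line 2 and 0.27 in line 1 (adjusted p = 2.48e-05, 0.00427 and 0.0497).

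In the routes that branch from glycolysis, counts are again read beside the shares of all genes. Of 7 pentose phosphate genes, 1 rose in each of line 2, TRIM24_KO and TRIM33_KO, namely G6pdx, the entry enzyme of that route (0.31, 0.40 and 0.37, adjusted p = 0.0155, 0.00335 and 0.00341), and 0 fell. That is 14.3% of the list, against 12.7%, 11.4% and 16.4% of all genes. Of 9 other pyruvate entry genes, at most 2 rose (22.2%, in TRIM33_KO, against 16.4% of all genes) and 1 fell in any line, with Mpc2, a mitochondrial pyruvate carrier subunit, up by 0.78 in TRIM33_KO and 0.65 in line 2 (adjusted p = 0.00276 and 0.0114). Of 16 tricarboxylic acid cycle genes, 1 rose and 1 fell in TRIM33_KO, 1 fell in line 2 and 0 were called in the other 4 lines.

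In TRIM24_KO other list genes passed the threshold with DOX. Arnt, the constant partner of HIF subunits, rose by 0.47 (adjusted p = 0.000133) and Plod1, a lysyl hydroxylase of collagen, by 0.47 (adjusted p = 0.00302), while Stc2, a secreted glycoprotein, fell by 0.91 (adjusted p = 0.000525). Tested as an interaction against the WT pLV2 lines, the DOX effects on Arnt, Plod1 and Stc2 did not differ past the threshold (adjusted p = 0.764, 0.617 and 0.791).

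Without DOX the same lists held calls in both directions, where 20.9% of all genes were higher and 22.4% lower in TRIM24_KO, 12.6% and 10.9% in TRIM33_KO, and 18.9% and 19.2% in line 2. Several lists were close to these shares, so the counts are a description. Of the 21 other HIF targets, 8 were higher and 6 lower in TRIM24_KO, 4 and 5 in TRIM33_KO and 6 and 8 in line 2 relative to line 1. Bhlhe40 was higher by 1.40 in TRIM24_KO (adjusted p = 1.53e-07). HIF regulators gave 3 higher and 4 lower in TRIM24_KO, 1 and 4 in TRIM33_KO and 2 and 6 in line 2, where Cited2, a competitor of HIF for its coactivator, was at -1.58 (adjusted p = 1.01e-08). Other glycolytic genes gave 2 and 4, 2 and 2, and 4 and 3 in that order, with Bpgm, bisphosphoglycerate mutase, higher by 2.02 in line 2 (adjusted p = 1.64e-07). Pyruvate entry genes gave 1 and 3, 2 and 0, and 4 and 1. Pentose phosphate genes gave 4 and 2, 1 and 3, and 0 and 5, and tricarboxylic acid cycle genes 7 and 6, 3 and 0, and 4 and 5. In TRIM24_KO, Suclg1, a succinyl-CoA ligase subunit, was higher by 1.24 (adjusted p = 1.64e-08).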

How the data were processed

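The authors deposited 1 table of raw read counts per library, with genes and repeat subfamilies in rows. Per the labels' protocols, rRNA-depleted RNA was made into strand-specific libraries. The submitters' processing notes name bcl2fastq 2.20.0, cutadapt 1.18, STAR 2.7.6a and the build mm10; the counting tool is not given in the sources used here. Groups follow the sample titles, since the treatment tag differs from the title in 8 pLV2 libraries.

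The deposited counts were fitted with edgeR 4.0.16 (R 4.3.3, limma 3.58.1) by its quasi-likelihood test, separately for the WT and DUXBL_KO set (8 libraries) and the pLV2 set (16 libraries), with 1 mean per group. Repeats were fitted with the genes, after filterByExpr, while library sizes and TMM factors came from gene counts. In each of 14 contrasts, Benjamini-Hochberg adjustment of p-values ran over all tested genes, and calls were made at 0.05. An error after ± is the standard error of a log2 fold change. DESeq2 1.42.0 and other settings were alternatives. The fit was tested on simulated data for DOX in WT and for DOX in WT pLV2 line 2. It missed most changes of 0.5 on the log2 scale in both, and most changes of 1 in WT. The share of false calls was above the threshold in WT pLV2 line 2 and not in WT.

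Copies are transcripts of other genes at least 95% identical over at least 300 bases (BLAST+ 2.17.0). Promoter sequences are from RefSeq, GRCm38.p6. Values for each library are given for up to 4 higher and 4 lower members per contrast with the smallest p, a mean of at least 50 counts and no overlap between groups, and for members that follow from them. The members, the lists and the tests were chosen with earlier results of these data known.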

Additional observations from a re-analysis of the deposited data

Results flagged for a closer look

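The effect of DOX differed between lines for 3 members by a test of the difference itself (edgeR's quasi-likelihood test of the interaction, Benjamini-Hochberg adjusted over genes). P4ha2 rose more than in the mean of the WT pLV2 lines by 0.63 on the log2 scale in the libraries labelled TRIM24_KO and by 0.92 in those labelled TRIM33_KO. In TRIM33_KO, Pfkfb3 was at -0.86 and Hk2 at -0.50 relative to the same reference. Pfkfb3 was also at -0.86 in WT pLV2 line 2 relative to line 1. The TRIM24_KO and TRIM33_KO values share their WT libraries, and against line 2 alone none of the 4 passed the threshold.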

How the results depend on the processing

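Named members gave 114 results and 1548 values under alternatives, of which 1357 kept direction and side of the threshold, 186 kept direction but lost the call and 5 reversed. The 5 are TRIM33_KO without DOX against WT pLV2 line 2 alone: Aldoa 0.0718, Eno1 0.0591, Pkm 0.00299, Ldhb -0.0664 and P4ha2 -0.20. Of the lost calls, 127 came from leaving out a library, which also leaves fewer libraries in the fit, and the cause of the others was not tested. No scaling moved the median of all genes by more than 0.0714 on the log2 scale.

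Counts of called members moved as follows. With only the compared groups fitted, they were 0 for DOX in WT, 13 for DOX in WT pLV2 line 1, and 0 for the interactions of TRIM24_KO and of line 2 against line 1. Without a filter on low counts they were 4 for DOX in DUXBL_KO, 2 for DUXBL_KO against WT, and 2, 10 and 9 for the interactions of TRIM24_KO, of TRIM33_KO and of line 2 against line 1. DESeq2 gave 2 for DOX in WT, 2 for DOX in DUXBL_KO, 1 for DUXBL_KO against WT, and 6 and 4 for the interactions of TRIM33_KO and of the WT lines. Median-of-ratios scaling and the tables without CT010467.1 each gave 0 for the TRIM24_KO interaction, and library sizes with repeats gave 2 for that of the WT lines. Line 1 alone as reference gave 23 for TRIM33_KO without DOX and 10 for its interaction; line 2 alone gave 0 for both and 0 for the TRIM24_KO interaction.

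Leaving out each library in turn, the counts ranged from 0 to 1 for DOX in WT, 1 to 2 in DUXBL_KO, 3 to 4 in line 1, 15 to 20 in line 2, 5 to 9 in TRIM24_KO and 17 to 20 in TRIM33_KO. Without DOX they ranged from 12 to 21 for TRIM24_KO, 4 to 15 for TRIM33_KO and 14 to 21 for line 2 against line 1. Interactions ranged from 0 to 1 for TRIM24_KO, 1 to 7 for TRIM33_KO and 0 to 4 for the WT lines.

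The labels do not say that equal replicate numbers mark a shared batch. With the replicate block, 2 members were called for DOX in WT and 2 in DUXBL_KO, P4ha2 and Slc16a1, both higher, and 1 for DUXBL_KO against WT, Slc2a3, lower by a log2 fold change of -0.66 (edgeR adjusted p = 0.031, against 0.163 without the block). No named call was lost. Same-numbered libraries deviated together by correlations from 0.05 to 0.80 within lines with and without DOX, by 0.39 between DUXBL_KO and WT without DOX, and from -0.04 to 0.03 between the pLV2 lines.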
